A study of Homo sapiens with 3 samples.

Results

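The metallothioneins examined here were 7 genes, MT1E, MT1F, MT1G, MT1H, MT1M, MT1X and MT2A, taken by symbol from the 33538 genes of each count matrix, and all 7 of the 7 listed were found. They were followed through 3 single-cell RNA libraries, numbered replicates 1 to 3 by the labels and belonging to 1 group, with no treatment, genotype or time contrast. The cells were SC-alpha cells, that is, alpha-like cells made in culture by directed differentiation of HUES8 (a widely used line of human embryonic stem cells) and then dispersed from clusters. All 3 libraries share that line, which is a single genetic background, and the labels do not say whether they came from separate differentiations, so any p-value below measures only the spread between these libraries. Since no group could be set against another, the comparisons were made between kinds of cell within each library.

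Metallothioneins are small, cysteine-rich proteins that bind zinc and copper and buffer the free metal in the cell. Their genes are switched on by the zinc-sensing transcription factor MTF1, which binds metal response elements in their promoters, and glucocorticoids and oxidative stress are further known inducers. Islet endocrine cells pack zinc into their secretory granules with the transporter SLC30A8, so zinc handling is a familiar part of their biology.

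The 7 genes lie together on chromosome 16 (GRCh38, GENCODE v29), between positions 56608199 and 56684196, a span of 75998 bases. Each has 3 exons and codes for protein. Along the chromosome the order is MT2A (56608199 to 56609497), MT1E (56625475 to 56627112), MT1M (56632233 to 56633986), MT1F (56657694 to 56660698), MT1G (56666731 to 56668065), MT1H (56669814 to 56671129) and MT1X (56682424 to 56684196). On the plus strand are 6 of them, and MT1G alone is on the minus strand. The copies are similar enough that some reads might not tell them apart. Of all 90-base windows of its transcript, MT1X shared 1.94% exactly with another counted gene (MT1G). MT1G shared 2.22% (with MT1X) and MT1H 6.49% (with MT1HL1), while MT1E, MT1F, MT1M and MT2A shared none. Those are shares of whole transcripts, and their effect on the counts of MT1X, MT1G and MT1H was not measured. MT1X also overlaps AC026461.1 and shares 23.3% of its windows with genes of the annotation when that gene is included, but AC026461.1 is not among the counted genes.

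Promoters are shown for the 3 members found in the RefSeq promoter table (GRCh38.p14): MT1X, the member with the most counts, MT2A, the member that differed between cell kinds, and MT1H, which had no counts at all. Each line gives 250 bases up to the RefSeq start site, 5′ to 3′ on the plus strand, and capitals mark the core of the metal response element, searched as TGCACNC or TGCGCNC on both strands, with no overlapping matches.
MT2A: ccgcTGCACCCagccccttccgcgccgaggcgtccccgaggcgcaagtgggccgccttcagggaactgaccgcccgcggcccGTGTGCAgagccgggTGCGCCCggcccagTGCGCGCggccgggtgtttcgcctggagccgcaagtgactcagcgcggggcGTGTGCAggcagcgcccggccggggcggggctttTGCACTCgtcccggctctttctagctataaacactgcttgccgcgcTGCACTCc
MT1X: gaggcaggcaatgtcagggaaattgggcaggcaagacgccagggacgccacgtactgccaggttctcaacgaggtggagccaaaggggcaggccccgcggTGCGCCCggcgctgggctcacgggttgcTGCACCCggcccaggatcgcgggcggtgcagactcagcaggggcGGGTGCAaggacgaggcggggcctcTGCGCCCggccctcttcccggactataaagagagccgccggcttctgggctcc
MT1H: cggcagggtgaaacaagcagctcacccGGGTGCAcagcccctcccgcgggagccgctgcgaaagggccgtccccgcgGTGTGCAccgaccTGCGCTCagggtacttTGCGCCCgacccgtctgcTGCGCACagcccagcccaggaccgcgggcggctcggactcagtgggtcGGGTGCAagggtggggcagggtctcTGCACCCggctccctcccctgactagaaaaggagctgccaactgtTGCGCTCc
The MT2A window is chr16:56608334-56608583 and held 7 matches. That of MT1X is chr16:56682220-56682469, with 4 matches, and that of MT1H is chr16:56669564-56669813, with 8. The RefSeq starts of MT2A and MT1X differ from the GENCODE gene starts given above. The MT2A window lies inside the GENCODE gene, and the MT1X window runs past the GENCODE start. Among 35116 promoters of the same length, 24.8% held at least 1 match, 0.370% held as many as MT1X, 0.0313% as many as MT2A and 0.0171% as many as MT1H. In MT2A and MT1H the match nearest the start ran from 8 to 2 bases before it, and in MT1X from 53 to 47 bases before it. These are letter matches and no binding was measured.

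The 3 libraries held 2850, 2576 and 4257 barcodes and 30139788, 31122791 and 30980799 unique molecular identifiers (UMIs, 1 for each captured RNA molecule). A barcode was kept where it had 1000 genes or more and its mitochondrial share was no higher than 20%, which left 1160, 1027 and 1466 cells with a median of 15267, 20721 and 9992 UMIs. Between any pair of libraries 1 to 4 barcodes were shared, none of them among kept cells. Glucagon cells, in which GCG made up at least 5% of UMIs and no other threshold was met, numbered 828, 811 and 908. All 8 alpha cell markers, GCG among them, were detected there in each library, and TTR, an abundant alpha cell transcript that chose no cell, stood at 73151 to 74928 CPM (UMIs of a gene per 1000000 UMIs of the class). Cells rich in insulin (INS at least 1% of UMIs, with any GCG share) numbered 26, 59 and 7. The 8 alpha cell markers summed to 217856, 192910 and 119136 CPM in them, against 232031, 239057 and 208914 in glucagon cells. INS-rich cells are therefore not a class free of glucagon, and their name refers to the INS threshold alone. TPH1-positive cells (at least 3 UMIs of TPH1, the rate-limiting enzyme of serotonin synthesis in the gut) numbered 33, 17 and 105. Collagen-positive cells (at least 5 UMIs of COL1A1, COL1A2 and COL3A1 together) numbered 10, 11 and 106. All levels are in CPM over the summed UMIs of a class in a library. Because each molecule gives 1 tag at its 3' end, levels of different members are compared without dividing by length.

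Metallothionein RNA was scarce in the glucagon cells, and most of it was MT1X. The 7 members together gave 117, 130 and 245 UMIs in replicates 1, 2 and 3, out of 14755154, 17848668 and 9995245, or 7.93, 7.28 and 24.5 CPM (mean 13.2 ± 9.77 SD, n = 3). MT1X supplied 95, 114 and 185 of these UMIs, which is 81.2, 87.7 and 75.5%. Its level was 6.44 CPM in replicate 1 (exact Poisson 95% interval 5.21 to 7.87), 6.39 in replicate 2 (5.27 to 7.67) and 18.5 in replicate 3 (15.9 to 21.4). Replicate 3 stood above the other libraries beyond counting error, which is the only error these intervals cover. By level MT1X ranked 9656th of 19331 genes with a UMI in replicate 1, 9621st of 19766 in replicate 2 and 5909th of 18689 in replicate 3.

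MT2A, in many tissues the most abundant metallothionein, gave 6, 9 and 27 UMIs in glucagon cells, or 0.407, 0.504 and 2.70 CPM. MT1F gave 11, 7 and 13 UMIs, or 0.746, 0.392 and 1.30 CPM. MT1E gave 5, 0 and 18 UMIs, the last at 1.80 CPM. After MT1X the order of the members was not settled: MT1F was second in replicate 1, and MT2A in replicates 2 and 3. MT1M and MT1G had 1 UMI each, both in replicate 3. MT1H had none in any library, which at 3 counts per library allows up to 0.203, 0.168 and 0.30 CPM. Of the other metallothionein genes, 5 of 6 symbols were found: MT3, known from brain, gave 0, 1 and 1 UMIs, and MT1A, MT1B, MT1HL1 and MT4 gave none.

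**Figure D1:**
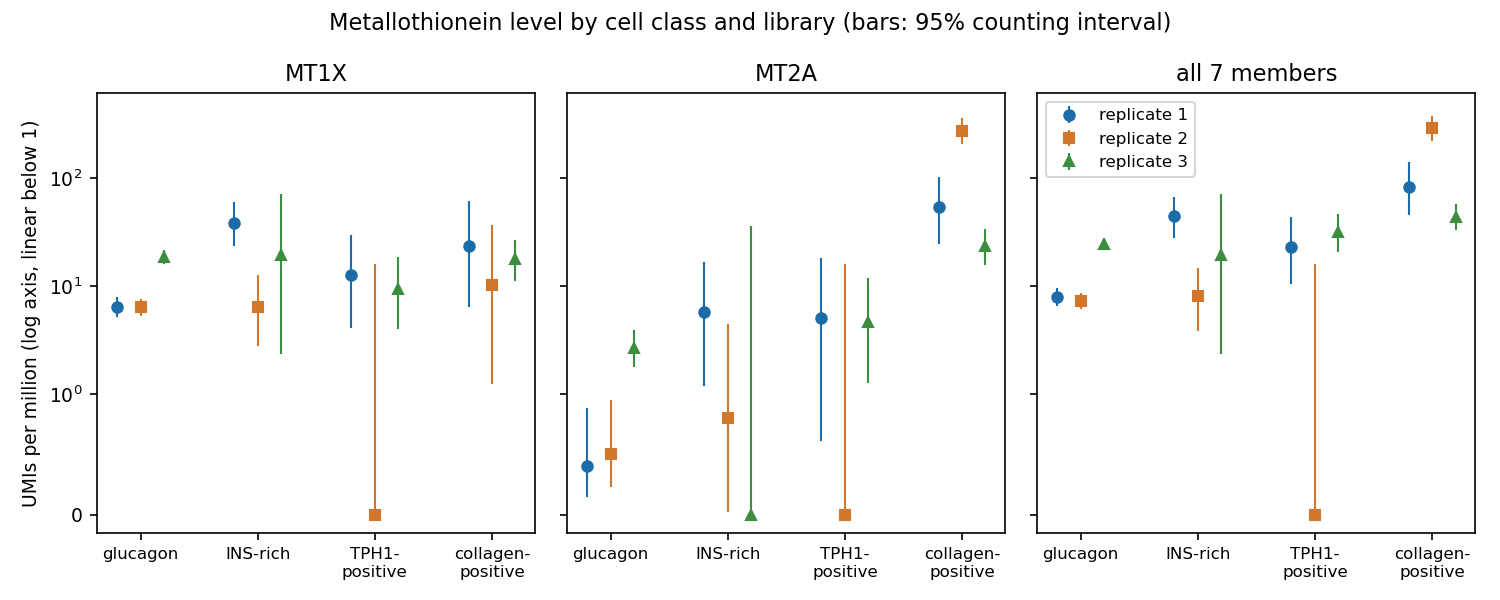
Level of MT1X, of MT2A and of all 7 metallothioneins in CPM, on an axis that is logarithmic above 1 and linear below it, by cell class and library. Points are single libraries and bars are exact Poisson 95% intervals; MT2A lies between 0.407 and 2.70 in glucagon cells and between 23.4 and 271 in collagen-positive cells.

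Barcodes under the gene minimum, which were not counted as cells here, give a low reference for these values, since no cell kind in these cultures is known to lack metallothioneins. In them MT1X stood at 3.78, 3.77 and 3.37 CPM, below the glucagon cells in all 3 libraries, although in replicates 1 and 2 the counting intervals overlapped (1.81 to 6.96 and 2.11 to 6.22). MT2A stood at 1.13, 0.503 and 0.674 CPM there. The MT2A level of glucagon cells in replicates 1 and 2 lay within the counting interval of this reference (0.234 to 3.32 and 0.0609 to 1.82), although 5 of the 9 UMIs of replicate 2 lay in 1 cell. The median mitochondrial share of these barcodes was 66.2, 7.88 and 81.9%, so they differ from the cells in more than depth and do not measure free RNA alone.

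Most glucagon cells had no metallothionein UMI. A UMI of any member was seen in 11.4% of them in replicate 1 (Clopper-Pearson 95% interval 9.27 to 13.7), 11.3% in replicate 2 (9.24 to 13.7) and 14.6% in replicate 3 (12.4 to 17.1). Replicate 3 had the shallowest cells, with a median of 10482 UMIs against 16438 and 21781. With each cell thinned to 5000 UMIs and shallower cells left out (791, 729 and 855 cells remained), the shares were 3.79, 3.43 and 9.01%. For MT1X alone they were 9.66, 10.5 and 12.8% unthinned and 3.41, 3.16 and 8.07% thinned. The distance between replicate 3 and the other libraries was thus wider at equal depth.

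Where a cell had metallothionein RNA it was usually a single molecule of a single gene. The most UMIs of the 7 members in 1 glucagon cell were 3, 11 and 9. UMIs of at least 2 different members were found in 4, 4 and 12 cells. For MT1X the variance of the UMIs per cell divided by their mean was 1.24, 2.35 and 2.63, where independent random capture from equal cells would give 1. The excess in replicate 2 rested on few cells: 1 glucagon cell held 10 MT1X UMIs and another held 6 together with 5 of MT2A.

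**Figure D2:**
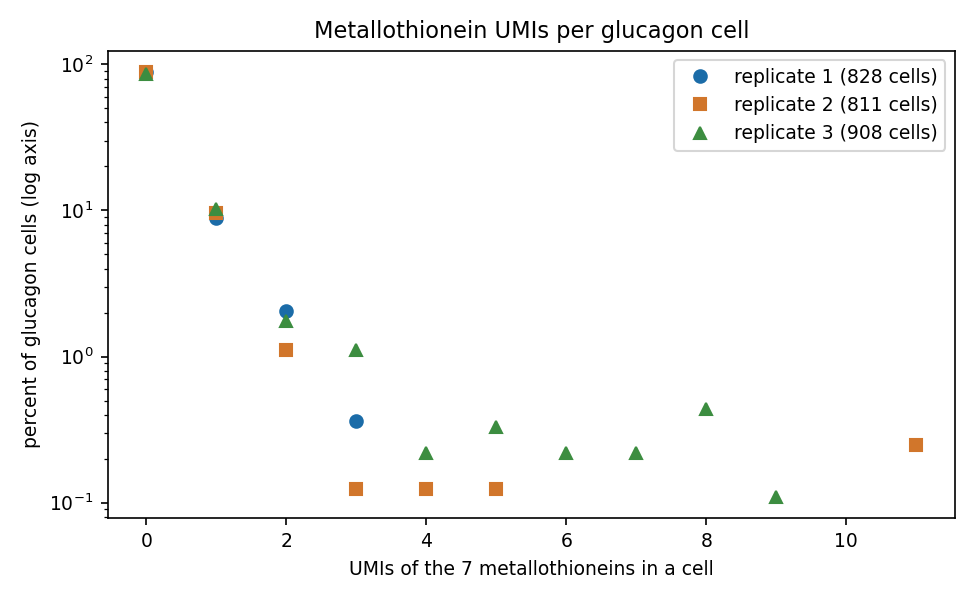
Percent of glucagon cells (log axis) by the number of metallothionein UMIs they held, with 1 symbol for each library. Cells with 0 UMIs, 734, 719 and 775 of them, dominate all 3 libraries, and the tail reaches 3 UMIs in replicate 1, 11 in replicate 2 and 9 in replicate 3.

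Mutual correlation of the members over glucagon cells was mostly low by Pearson's r on log2 of UMIs per 10000 plus 1. Few cells held any member but MT1X: MT2A was seen in 5, 5 and 12 of them. A value could be computed for 6, 3 and 15 pairs, and the median was -0.0054, 0.043 and 0.033. Above 0.1 were 1, 1 and 6 pairs. MT1X and MT2A gave 0.113, 0.260 and 0.121. Those values rest on 2, 2 and 3 cells that held both genes, against products of their shares of 0.483, 0.524 and 1.53 cells. The highest pair in replicate 3, MT1M with MT1F at 0.212, rests on 1 cell. Cells of a library share its depth and handling, and with counts this sparse no pairwise pattern can be read from these values. Pearson's r of the summed family with the GCG share, the mitochondrial share, the depth and the number of genes stayed within 0.1 of zero in every library. Spearman's rho reached 0.157 with depth and 0.155 with the number of genes in replicate 1, and stayed within 0.1 of zero elsewhere.

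Among 2178 genes at 50 CPM or more in glucagon cells of every library, none had a correlation with the summed family above 0.1 in all 3 libraries. Ranked by their lowest value over the 3 libraries, the nearest were HIGD2A, an assembly factor of the respiratory chain (0.135, 0.101 and 0.0716), GNAS, which codes for the stimulatory G protein subunit (0.108, 0.0876 and 0.0632), and TMEM33 (0.0595, 0.0704 and 0.0585). PPDPF, ANAPC16, NUDC, MGST3, AES, SRP14 and UQCRC2 followed. At this size these are descriptions only.

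The makeup of the family turned over in collagen-positive cells, where MT2A led. MT2A gave 9, 53 and 29 UMIs there, out of 168953, 195372 and 1240276, or 53.3, 271 and 23.4 CPM. The lowest collagen-positive value was above the highest glucagon value of 2.70 CPM, so the groups did not overlap. MT2A was higher in collagen-positive cells in 3 of 3 libraries, with means of 116 ± 135 against 1.20 ± 1.30 CPM (SD, n = 3) and a log2 fold change of 5.90 ± 0.81 (SE), at an adjusted p of 1.43e-05 by edgeR's quasi-likelihood test on summed counts with the library as block. Of the 7 members 3 had enough counts to be tested, and 1 of these 3, MT2A, passed. In this comparison 18.7% of 13099 genes passed in the higher direction and 23.3% in the lower, so passing was common. The median log2 fold change of the 3 tested members was 0.79, beside -0.24 over all genes tested.

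The size of the MT2A difference depended on single cells and libraries. In replicate 2, 1 cell held 38 of the 53 MT2A UMIs, or 71.7%. Without the cell with the most metallothionein in each class and library, the log2 fold change was 4.72. Cells were removed there by the counts under test, so only the size is given and not a p. Leaving out replicate 2 gave 4.25 and leaving out replicate 3 gave 7.98, while leaving out replicate 1 gave 5.70. MT2A was detected in 2 of 10, 5 of 11 and 15 of 106 collagen-positive cells, or 20, 45.5 and 14.2%, against 0.604, 0.617 and 1.32% of glucagon cells. Median depths of the collagen-positive cells were 16500, 19655 and 10838 UMIs, close to those of the glucagon cells.

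No other member passed the test at this depth. MT1X gave 4, 2 and 22 UMIs in collagen-positive cells, or 23.7, 10.2 and 17.7 CPM, and its log2 fold change of 0.23 ± 0.48 did not pass (edgeR adjusted p = 0.726). Without replicate 1 it turned to -0.15. By detection, MT1X was seen in 19.0 ± 0.918% of collagen-positive cells and 11.0 ± 1.61% of glucagon cells (mean of the libraries ± SD, n = 3). That difference in detection was not tested. MT1E gave 1 UMI in each library and did not pass (0.79 ± 1.41, edgeR adjusted p = 0.687). MT1F and MT1G gave 1 UMI each, both in replicate 3, and MT1M and MT1H none. MT2A therefore made up 64.3, 94.6 and 53.7% of the family's UMIs in these cells, against 5.13, 6.92 and 11.0% in glucagon cells.

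**Figure D3:**
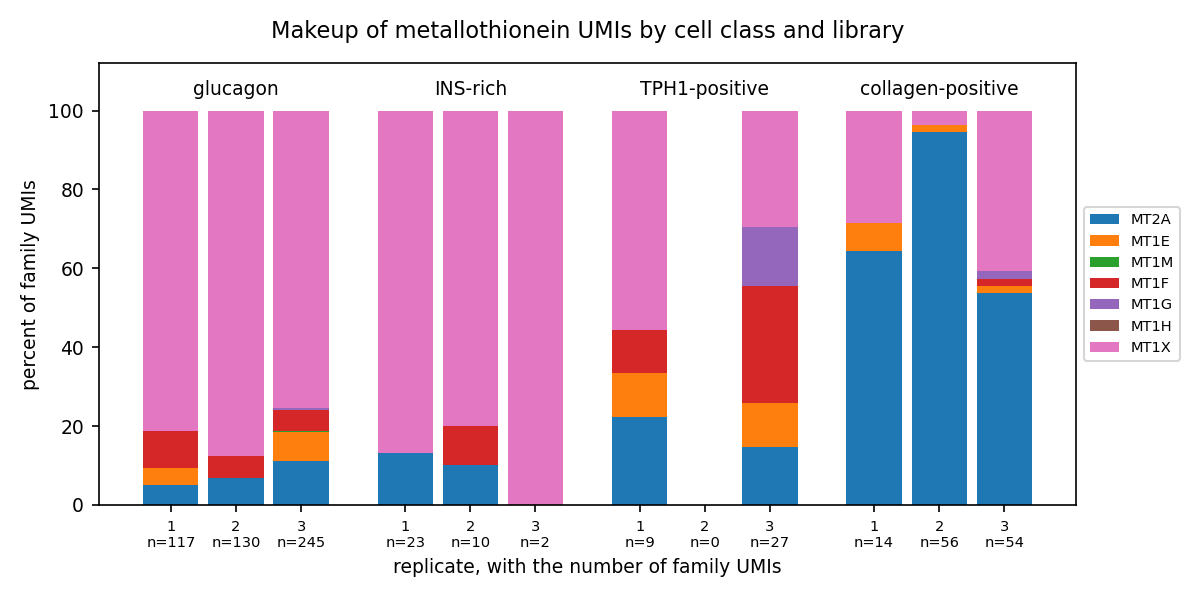
Share of the metallothionein UMIs that each member supplied (percent, stacked bars from 0), by cell class and library, with the number of UMIs under each bar. MT1X makes up 75.5 to 87.7% in glucagon cells and MT2A 53.7 to 94.6% in collagen-positive cells; TPH1-positive cells of replicate 2 held no UMI.

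Seen from the whole library, collagen-positive cells held 0.902, 0.925 and 8.08% of the UMIs of kept cells but 24.3, 73.6 and 26.1% of the MT2A UMIs. Glucagon cells held 78.7, 84.5 and 65.1% of the UMIs but only 16.2, 12.5 and 24.3% of MT2A. Their share of MT1X, 66.9, 79.2 and 68.8%, was below their share of all UMIs in replicates 1 and 2 and above it in replicate 3. In replicate 1 the INS-rich cells held 14.1% of MT1X, all of it in 1 cell. Kept cells that met none of the thresholds gave 17, 9 and 51 MT2A UMIs, or 6.06, 5.96 and 16.5 CPM, between the glucagon and the collagen-positive level in every library.

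The collagen-positive cells carried all 8 mesenchyme markers of the list used, of which the 3 collagens had chosen the cells. The 5 others were present in each library, such as LUM at 1391, 328 and 910 CPM and DCN at 219, 195 and 333 CPM, against at most 1.40 and 0.400 in glucagon cells. All 4 endothelium markers were at 0 in each library. Other properties moved with the class: proliferation markers summed to 994, 532 and 677 CPM against 18.4 to 33.9 in glucagon cells, and the median mitochondrial share was 9.30, 10.7 and 9.20% against 14.8 to 15.1%. In replicate 1 the duct or exocrine markers also summed to 3084 CPM, most of it KRT19 (2450), against 282 and 157 in the other libraries. The part of these in the MT2A difference was not tested.

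TPH1-positive cells showed no metallothionein difference that passed the test. MT1X gave 5, 0 and 8 UMIs there, or 12.7, 0 and 9.33 CPM, and overlapped with the glucagon cells (log2 fold change -0.99 ± 0.50, edgeR adjusted p = 0.234). MT2A gave 2, 0 and 4 UMIs (0.91 ± 0.87, edgeR adjusted p = 0.594). Of the 7 members 2 were tested and 0 passed, against 6.5% of 12837 genes higher and 7.67% lower. The median log2 fold change of those 2 was -0.04, beside -0.02 over all genes tested. These fold changes are relative to a median plain CPM ratio of 0.49 (log2) between the classes. In replicate 2 no member had a UMI among 231627, which allows up to 13.0 CPM. In replicate 3 the makeup was mixed, with 8 UMIs each of MT1X and MT1F, 4 each of MT2A and MT1G and 3 of MT1E, and 12 of those 27 UMIs lay in 1 cell.

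The MT1X result in TPH1-positive cells changed with the cells admitted. Without the cell with the most metallothionein in each class and library, MT1X was lower (-2.10, edgeR adjusted p = 0.0119). That alternative removes cells by the counts under test. In TPH1-positive cells it took 4 of 5 MT1X UMIs in replicate 1 and 3 of 8 in replicate 3. From glucagon cells of replicate 3 it took 9 of 185. The smaller class is thus lowered more by the removal itself, and this p does not show a lower level. Without replicate 1 MT1X was also lower (-1.62, edgeR adjusted p = 0.0481). That fit rests on 0 and 8 MT1X UMIs in TPH1-positive cells. It leaves out the 1 library where MT1X was higher there (12.7 against 6.44 CPM). With the mitochondrial limit at 30% MT1X turned higher (1.41, edgeR adjusted p = 0.0660) and MT2A turned to -1.14. MT1F, which had too few counts before, was then tested and passed (2.65, edgeR adjusted p = 0.0025). The wider limit gave 23, 42 and 15 MT1X UMIs in the class, of which 1 added barcode of replicate 1 held 17 and 1 of replicate 2 held all 42. For MT2A it gave 135 UMIs in glucagon cells of replicate 3, 98 of them in 1 added barcode. MT1F also passed without replicate 2 (2.13, edgeR adjusted p = 0.0309). TPH1-positive cells held 1 MT1F UMI in replicate 1 and 8 in replicate 3, and 0 in the library left out. FEV, an enterochromaffin marker that did not choose the cells but is shared with other endocrine cells, stood at 406, 453 and 690 CPM in them against 106 to 147 in glucagon cells, while LMX1A gave 1, 0 and 2 UMIs. In replicate 2 their immune markers summed to 1675 CPM, nearly all of it LYZ (1584), and their proliferation markers to 255 CPM, each above the other libraries, and the part of these was not tested.

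At the thresholds used INS-rich cells were not tested over the 3 libraries, since replicate 3 had 7 of them. MT1X gave 20, 8 and 2 UMIs, or 38.3, 6.45 and 19.5 CPM, and overlapped with the glucagon cells. All 20 UMIs of replicate 1 came from 1 cell of 13050 UMIs, which also held all 3 MT2A UMIs of that class. In replicates 2 and 3 the MT1X UMIs were spread over 6 cells and 1 cell. The level in INS-rich cells of replicate 1 is thus that of 1 cell among 26. Without replicate 3, a fit of the other libraries gave an MT1X log2 fold change of 1.42 (edgeR adjusted p = 0.0232) that includes this cell, and with the mitochondrial limit at 30% all 3 libraries gave 0.76 (edgeR adjusted p = 0.353).

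Within the glucagon cells, the upper and lower terciles of the mitochondrial share were compared, as a gauge of cell state. MT1X gave 30, 34 and 56 UMIs in the upper tercile and 29, 43 and 70 in the lower, or 5.83, 5.03 and 16.0 against 6.64, 9.77 and 23.5 CPM. It was lower in the upper tercile in 3 of 3 libraries but did not pass (log2 fold change -0.51 ± 0.19, edgeR adjusted p = 0.175). It was the 1 member with enough counts to be tested, and 0 passed, against 1.03% of 12128 genes higher and 0.437% lower. In replicate 3 the lower tercile held 13 MT2A and 13 MT1E UMIs, in 4 cells each, and the upper tercile held 1 and 2. In replicate 1 those counts were 1 and 2 in the lower tercile and 3 and 3 in the upper, so the libraries did not share a direction.

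Genes that sense and move zinc more often had enough counts to be tested. In TPH1-positive cells these were 8 of 11 for sensing and export and 11 of 14 importers, against 2 of 7 metallothioneins. Of all 33538 counted genes, 12837 were tested there, so 2 of 7 does not set the metallothioneins apart from genes at large. MTF1, the activator of the metallothionein genes, stood at 17.1, 14.6 and 15.6 CPM in glucagon cells. In TPH1-positive cells its plain CPM was higher in 3 of 3 libraries without overlap (17.8, 38.9 and 24.5), but relative to the shift of all genes there it did not pass (log2 fold change 0.18, edgeR adjusted p = 0.791), nor did it in collagen-positive cells (-1.05, edgeR adjusted p = 0.0855). SLC30A1, the plasma membrane zinc exporter and itself a known MTF1 target, stood at 10.3, 9.86 and 11.1 CPM and did not pass either, with 0.57 (edgeR adjusted p = 0.395) and 0.62 (edgeR adjusted p = 0.392). In TPH1-positive cells its plain CPM was also higher in 3 of 3 libraries without overlap, at 27.9, 38.9 and 11.7. In collagen-positive cells SLC30A1 gave 4, 11 and 8 UMIs, or 23.7, 56.3 and 6.45 CPM, and so overlapped with the glucagon cells. Neither gene passed between the mitochondrial terciles.

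SLC30A8, which loads zinc into secretory granules, differed in each comparison. It stood at 63.2, 79.8 and 74.5 CPM in glucagon cells, at 10.2, 4.32 and 11.7 in TPH1-positive cells, and gave 0, 0 and 2 UMIs in collagen-positive cells. The difference passed in both: SLC30A8 fell by 3.34 ± 0.26 on the log2 scale in TPH1-positive cells (edgeR adjusted p = 1.26e-07) and passed at an edgeR adjusted p of 6.88e-08 in collagen-positive cells. It was also lower in the upper mitochondrial tercile (-0.43, edgeR adjusted p = 0.000145).

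**Figure D4:**
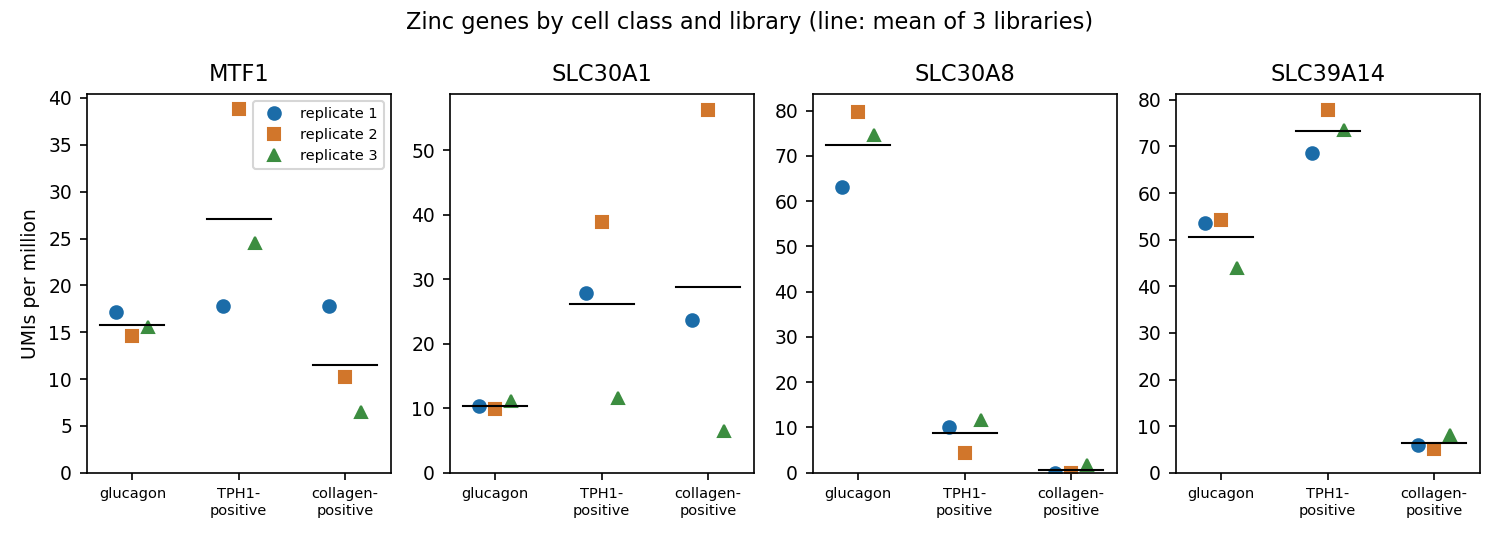
Level in CPM (linear axes from 0) of MTF1, SLC30A1, SLC30A8 and SLC39A14 in glucagon, TPH1-positive and collagen-positive cells. Points are the 3 libraries and lines their means; SLC30A8 lies between 63.2 and 79.8 in glucagon cells and at or under 11.7 in the other classes.

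Among all genes 6.5% passed as higher and 7.67% as lower in TPH1-positive cells, and 18.7 and 23.3% in collagen-positive cells. Of 8 tested genes of zinc sensing and export, 0 rose and 1 fell in TPH1-positive cells, and 0 rose and 3 fell in collagen-positive cells, where SLC30A7 fell by 2.03 and SLC30A9 by 0.83 (log2). Medians over the 8 were 0.12 and -0.94, beside -0.02 and -0.24 over all genes. Of 11 zinc importers none passed in TPH1-positive cells, while 3 rose and 4 fell in collagen-positive cells (medians -0.14 and -0.23). SLC39A14 fell there by 2.89 and SLC39A11 by 1.35 (log2), and SLC39A5 had no UMI among 1604601, at least 4.42-fold lower when 3 counts over the 3 libraries are allowed and the glucagon level of each library is weighted by its collagen-positive UMIs. SLC39A5 was the 1 importer that rose in the upper mitochondrial tercile (0.92, edgeR adjusted p = 0.000358).

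Copper, iron and antioxidant genes, which share inducers or metals with the metallothioneins, gave mixed counts, read against the 18.7% of all genes that passed as higher and the 23.3% as lower in collagen-positive cells. In collagen-positive cells 3 of 9 copper genes rose and 1 fell: COMMD1 rose by 0.79 and SOD1, the copper and zinc superoxide dismutase, by 0.60, and COX17, a copper chaperone, fell by 2.03 (log2). There 1 of 8 iron genes rose and 4 fell, among them FTL, the ferritin light chain, by 2.40, TFRC by 1.87 and SLC40A1 by 1.26. TFRC gave only 3, 2 and 8 UMIs in collagen-positive cells, and its plain CPM overlapped with that of the glucagon cells. Its plain CPM was higher in collagen-positive cells in replicate 1 (17.8 against 11.3) and lower in replicates 2 and 3. Of 10 NRF2 antioxidant genes 3 rose and 2 fell, with NQO1 higher by 3.73 and PRDX1 by 2.92, and GCLC lower (-2.53). Of 7 glucocorticoid-responsive genes 1 rose (CEBPD, 4.47) and 3 fell, with DUSP1 at -2.06 and the receptor NR3C1 at -1.28. The medians of these lists were 0.01, -0.96, 0.22 and -1.18 on the log2 scale, beside -0.24 over all genes. With lists this short, such counts do not set them apart from other genes.

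In TPH1-positive cells, where 6.5% of all genes passed as higher and 7.67% as lower, 0 of 9 copper genes rose and 1 fell: COX17 (-0.49), whose plain CPM did not separate the classes (226, 294 and 246 against 230, 261 and 256). Of 8 iron genes 0 rose and 2 fell, FTL by 0.92 and SLC40A1 by 0.81 (log2). The plain CPM of SLC40A1 overlapped as well (35.5, 38.9 and 22.2 against 36.1, 40.3 and 35.0), so its call and that of COX17 rest on the scaling between classes. Of 10 NRF2 genes 1 rose, GCLC by 1.79, and 1 fell, GCLM by 0.83, although both code for subunits of the same enzyme of glutathione synthesis. Of 8 glucocorticoid-responsive genes 2 rose and 0 fell: CEBPD (3.78) and SGK1, with 34 UMIs against 2 in glucagon cells, a CPM ratio of 488 over the pooled libraries with a counting interval of 125 to 4196. The medians were -0.10, -0.18, -0.01 and -0.44, beside -0.02 over all genes. Between the mitochondrial terciles no gene of these 4 lists passed.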

How the data were processed

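RNA of single cells was measured with 10x Genomics 3' v3 chemistry in 3 libraries, per the labels' protocols. The values are UMI counts as deposited, unnormalized; the authors used Cell Ranger 4.0.0 and GRCh38, per the submitters' processing notes, and which gene annotation and cell-calling settings they used is not given in the sources at hand.

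Filters and class thresholds are those given above. A cell past a second threshold was left out of the fits, except that INS-rich cells could have any GCG share. Doublets stayed in for the values reported; Scrublet, in scanpy 1.11.5, called 18, 11 and 18 of the kept cells, and the fits were repeated without them. For the fits, UMIs were added up by class within a library, provided every library had 10 cells or more of the class. The test was the quasi-likelihood test of edgeR 4.0.16 in R 4.3.3, with TMM and filterByExpr, across all genes, and a gene passed under an adjusted p (Benjamini-Hochberg) of 0.05. The library entered as a block, because the 2 sums compared share it. Each SE was derived from the fold change and the F statistic. DESeq2 1.42.0, other filters, thresholds, scalings and left-out libraries were tried as alternatives.

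Intervals are at 95% and reflect counting alone; for 0 counts the limit was set at 3. Other values were computed in Python 3.11.15 (numpy 2.4.6, scipy 1.17.1, pandas 2.3.3). The genes named are all members, the other metallothionein genes, MTF1, SLC30A1, SLC30A8, for each list the up to 3 passing genes that changed most, and the 10 genes most like the family; the cell type markers named were picked after their values were seen. Members, lists and thresholds were chosen with earlier results of these data known.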

Additional observations from a re-analysis of the deposited data

How the results depend on the processing

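Of 231 values recomputed under alternatives, 197 counted as unchanged. Among them were the counts of members that passed, which could change little because few members were tested. For a fold change of a member that meant the same direction and side of the threshold. For a count of genes it meant the same count or one within a fixed fold of it. For a mean level or correlation it meant a shift smaller than the SD between libraries. Of 66 fold changes of members, 61 kept their direction. MT2A stayed higher in collagen-positive cells under every alternative run, from 4.25 to 7.98 (log2); without the replicate block it was 6.10 (edgeR adjusted p = 6.17e-05), and the pairing of sums by library changed no call on a member. In that comparison 1623 genes were higher and 1961 lower in thinned counts, 1982 were lower by DESeq2, and leaving out 1 library gave 1346 to 2523 higher and 1793 to 2846 lower, fewest without replicate 3. Leaving out 1 library also turned MT1E to -0.11 and -0.15 and gave -0.15 to 0.99 for MT1X. In TPH1-positive cells 1265 genes were higher with the 30% mitochondrial limit, where 1 member was higher, MT1X was 1.41 and MT2A -1.14; DESeq2 gave 537 lower, and without the cell with the most metallothionein 1 member was lower, an alternative chosen after seeing the data. Leaving out 1 library gave 549 to 962 genes higher, 0 to 1 members higher and 0 to 1 lower. Between mitochondrial terciles, genes higher were 6 without the replicate block, 39 by DESeq2, 254 with the 30% limit and 40 in thinned counts, and genes lower were 0, 234 with the 30% limit, 5 in thinned counts and 28 without doublets; leaving out 1 library gave 51 to 188 higher and 9 to 239 lower. The MT1X and MT2A correlation averaged 0.165, or 0.0735 by Spearman. The cause of these shifts was not tested, apart from the added barcodes given above for the 30% limit. INS-rich cells could be fitted with the 30% limit (MT1X 0.76, edgeR adjusted p = 0.353) and without replicate 3 (1.42, edgeR adjusted p = 0.0232, on the 1 cell with 20 UMIs); their other alternatives, and the stricter collagen threshold, which left 9 cells in replicate 1, were not run. The summed level in glucagon cells ranged from 12.7 to 16.9 CPM over the settings that kept all libraries, and from 7.61 to 16.2 with 1 left out. Members without enough UMIs to be tested are limited by depth and not shown to be absent.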

Other observations

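A few barcodes held far more metallothionein RNA than the rest. With a limit of 10 family UMIs, chosen after seeing the data, 1, 4 and 3 kept cells in replicates 1, 2 and 3 reached it and held 11.2, 31.2 and 8.04% of the family's UMIs. They were of several kinds: 2 met the glucagon threshold, 2 the collagen threshold, 1 the INS threshold, 1 the TPH1 threshold and 2 none. The members they held differed too. The INS-rich cell of replicate 1 held 20 MT1X and 3 MT2A UMIs, and the richest collagen-positive cell of replicate 2 held 38 MT2A, 1 MT1E and no MT1X.

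The richest barcode of all fell outside the analysed cells. In each library 1 barcode over the mitochondrial limit reached 10 family UMIs, and these held 25, 50.6 and 50% of the family's UMIs among such barcodes. In replicate 3 it held 159 of its 11487 UMIs, 98 of MT2A and 60 of MT1X, or 13842 CPM, with 7.23% of UMIs from GCG and 23.5% from mitochondrial genes. In replicate 2 it held 42 MT1X and 1 MT1F UMIs with 12 of TPH1 and a mitochondrial share just past the limit. In replicate 1 it held 17 MT1X UMIs, no other member, and 3 of TPH1. The family stood at 7.77, 14.1 and 32.8 CPM over all barcodes past the mitochondrial limit, these single barcodes included.

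Cells with at least 10 ALB UMIs, 3, 4 and 8 of them, gave 1, 0 and 1 family UMIs. MT3 gave 29 UMIs in kept cells of replicate 3, in 7 cells, against 4 and 1 in the other libraries.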
